A study of Rattus norvegicus with 6 samples.

Results

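The rat miR-125 family was followed from cardiac fibroblasts into the exosomes that these cells released. All listed entries named miR-125a or miR-125b were taken, whatever their hairpin copy or arm, which gave 5 mature miRNAs of the 728 listed: rno-miR-125a-5p, rno-miR-125a-3p, rno-miR-125b-5p, rno-miR-125b-1-3p and rno-miR-125b-2-3p. The prefix rno, for rat, is left out below except where a member's values begin. Both groups came from hearts of newborn Wistar rats (labelled P1-P2, that is an age of 1 to 2 days), and the labels name no genetic change or drug. Fibroblasts, the connective tissue cells of the heart, were released by enzymes and grown with 10% serum and antibiotics. They then conditioned their medium for 48 h with 1% serum depleted of exosomes. The exosome group is RNA from vesicles purified from that medium by centrifugation, filtration and ultracentrifugation, and the fibroblast group is RNA of the cells, with 3 small RNA libraries each. The labels do not say that the libraries of a group came from separate cultures, so the p-values speak of the spread among these 6 libraries alone, and that spread may be technical. The exosome libraries are called 1, 2 and unnumbered, because the name of the last one's data column carried no number, and the fibroblast libraries 1, 2 and 4.

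A microRNA is cut from a hairpin transcript by Drosha and Dicer, and 1 strand of the resulting duplex is usually kept in Argonaute as the guide, while the other strand is degraded. The guide finds target messages mainly through its seed, bases 2 to 8. miR-125 is the vertebrate relative of lin-4, the founding microRNA of worm development, and miR-125b has been studied in the heart for its part in the activation of fibroblasts. Exosomes are small vesicles released by cells, and are known to carry small RNA.

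The sequences show which entries can share targets and which can share reads. The mature forms below, from RefSeq and placed on build GRCr8, are written 5′ to 3′ with the seed in capitals. miR-351-5p is included because it carries the same seed.
miR-125a-5p: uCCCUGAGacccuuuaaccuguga
miR-125b-5p: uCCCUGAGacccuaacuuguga
miR-351-5p: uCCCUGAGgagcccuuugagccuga
miR-125a-3p: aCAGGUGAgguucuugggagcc
miR-125b-1-3p: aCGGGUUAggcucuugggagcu
miR-125b-2-3p: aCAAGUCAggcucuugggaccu

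The 5p strands, the usual guides, have 1 seed in common, CCCUGAG, found in 3 listed entries. miR-125a-5p and miR-125b-5p are identical over their first 13 bases and differ by an edit distance of 3. The 3p strands each have a seed of their own, found in 0 other listed entries. Their bodies are close, with edit distances of 4 between miR-125a-3p and miR-125b-1-3p, 5 between miR-125a-3p and miR-125b-2-3p, and 4 between the 3p strands of miR-125b. RefSeq mature sequences matched 655 of the 728 listed entries and all 5 members. How the authors' counting assigned reads that fit more than 1 entry is not given in the sources used here.

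The hairpins show where the strands lie, with both arms in capitals.
Mir125a: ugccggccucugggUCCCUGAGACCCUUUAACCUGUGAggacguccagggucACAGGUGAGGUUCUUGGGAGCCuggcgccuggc
Mir125b1: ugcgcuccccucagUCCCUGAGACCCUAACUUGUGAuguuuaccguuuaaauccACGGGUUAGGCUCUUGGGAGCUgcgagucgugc

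The Mir125a hairpin occupies chr1:67350675-67350759 on the plus strand, inside the span of the protein-coding gene Spaca6. Its 5p arm lies at chr1:67350689-67350712 and its 3p arm at chr1:67350727-67350748. Mir125b1 lies at chr8:50850036-50850122 on the plus strand, inside the spans of Mir100hgl and of the long non-coding RNA Lnc215, with the 5p arm at chr8:50850050-50850071 and miR-125b-1-3p at chr8:50850090-50850111. A second copy, Mir125b2, gives the same 5p strand at chr11:29732588-29732609 and miR-125b-2-3p at chr11:29732627-29732648, inside the span of the long non-coding RNA LOC103693508. Exon or intron was not assigned here, since only spans were at hand. The miR-125b-5p count therefore sums both copies, whereas the 3p strands tell the copies apart. The gene for miR-3588 overlaps Mir125b2 on the opposite strand, and its mature sequence is the exact reverse complement of miR-125b-5p. The counts of miR-3588, looked up because of that overlap, were 12, 8 and 1 in exosome libraries and 258, 2130 and 26 in fibroblast libraries. Those of miR-125b-5p were 13, 39 and 54 in exosome libraries 1, 2 and unnumbered, and 78920, 141167 and 29195 in fibroblasts. In exosome library 1 the entries were thus nearly equal, at 12 and 13 counts. Whether the authors counted by strand is not given, so it is not known whether reads of 1 entry were counted under the other.

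Counts summed over all listed miRNAs were between 113129 and 120224 in exosome libraries and between 2439559 and 12508651 in fibroblast libraries. In exosomes, 84.9% to 90.1% of them belonged to miR-873-3p, against 0.391% to 2.37% in fibroblasts. That left 18164, 14338 and 11825 exosome counts for all other miRNAs. A count of 0 allowed a share of up to 0.00250% to 0.00265% of the exosome counts, and this limit, like the intervals below, covers counting error only, because PCR copies of a molecule are not independent. The 6 mesenchymal markers, miR-143-3p, miR-145-5p, miR-199a-5p, miR-199a-3p, miR-214-3p and miR-21-5p, held 34.1% to 38.5% of fibroblast counts and 0.114% to 0.861% of exosome counts, with 137, 158 and 1024 summed counts in exosome libraries 1, 2 and unnumbered. The 6 cardiomyocyte markers held at most 0.0172% in any library. Endothelial miR-126a (both arms) held 0.0100% to 0.0152% in fibroblasts and 0.0840% to 0.0966% in exosomes. Blood markers (5 entries) held 0.00570% to 0.0299% and 0.0168% to 0.0230%. The part of these shifts in the results below was not tested.

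In the cells, the miR-125 family was abundant and its guide strands led. The 5 members together held 2.53%, 2.30% and 2.79% of the counts of fibroblast libraries 1, 2 and 4. miR-125b-5p ranked 17, 18 and 16 of all listed miRNAs, and miR-125a-5p ranked 21, 22 and 26. miR-125b-1-3p followed at ranks 28, 29 and 21, and miR-125b-2-3p at 45, 46 and 31. miR-125a-3p stood far below, at ranks 202, 172 and 227. In each fibroblast library miR-125b-5p was thus the first of the 5 and miR-125a-3p the last. The middle of the order was less fixed, because miR-125a-5p was above miR-125b-1-3p in libraries 1 and 2 and below it in library 4.

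In exosomes the same 5 members held 0.105%, 0.122% and 0.120% of the counts of libraries 1, 2 and unnumbered, which is 126, 138 and 143 counts. Without miR-873-3p in the total, their share was 0.694%, 0.963% and 1.21%, against 2.57%, 2.31% and 2.86% in fibroblasts. The order of the members differed from library to library. miR-125b-2-3p led in exosome libraries 1 and 2 with 62 and 57 counts, and miR-125b-5p led in the unnumbered library with 54 counts. Levels here are relative to the other RNA of a library, so a lower level in exosomes need not mean fewer copies. Fewer vesicles that carry a miRNA, fewer copies in each and a larger amount of other RNA cannot be told apart in these bulk libraries.

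**Figure D1:**
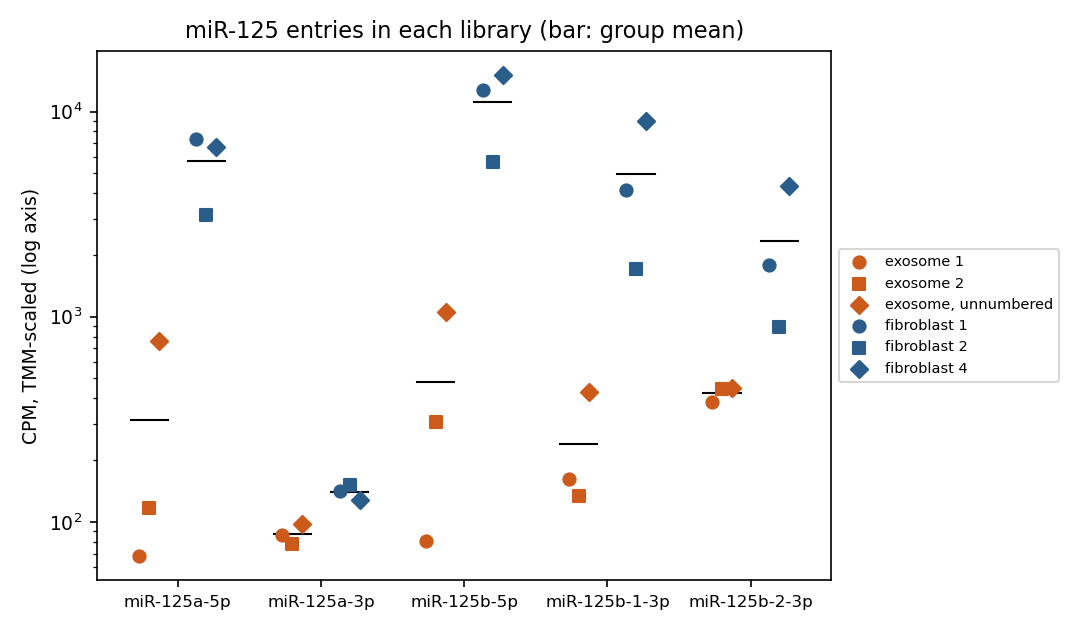
Level of each miR-125 entry in each library, in CPM (counts scaled to library size) after TMM scaling (log axis), with a bar at the mean of each group of 3 libraries; orange is exosome and blue is fibroblast, and marker shape only names the library. The exosome values of each entry lie below all its fibroblast values, by the smallest distance for miR-125a-3p.

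Both 5p guide strands were far lower in exosomes than in the cells. rno-miR-125b-5p was measured at 80.5, 306 and 1051 CPM (the count scaled to library size, here after TMM scaling, which sets libraries to a common level over most miRNAs) in exosome libraries 1, 2 and unnumbered. Its fibroblast values were 12784, 5673 and 15102 CPM. The groups did not overlap, and the unnumbered exosome library was the highest of its group. The means were 479 ± 508 CPM in exosomes and 11187 ± 4913 in fibroblasts (SD, n = 3 each). The log2 fold change of exosome over fibroblast was -4.58 (SE 1.32), a level 23.8-fold lower, with an adjusted p of 0.0031 by edgeR's quasi-likelihood test, adjusted by Benjamini and Hochberg's method over the 698 miRNAs tested. Without exosome library 1 the same test gave -4.12 and an adjusted p of 0.055, above the threshold of 0.05.

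rno-miR-125a-5p, the guide of the other gene, had 68.1, 118 and 759 CPM in exosomes. In fibroblasts it had 7320 (library 1), 3133 and 6700 CPM. The unnumbered exosome library again stood highest of its group, far from the other exosome libraries but below every fibroblast library. That library had a TMM factor of 0.432, against 1.34 and 1.13 for exosome libraries 1 and 2, and the highest summed count of mesenchymal markers of the 3, and their part in its guide levels was not tested. The means were 315 ± 385 and 5718 ± 2259 CPM (SD, n = 3 each). The log2 fold change was -4.24 (SE 1.16), 18.9-fold lower in exosomes, with an adjusted p of 0.0019 by edgeR's quasi-likelihood test. Without the unnumbered exosome library, the log2 fold change was -6.04 for miR-125a-5p and -5.96 for miR-125b-5p.

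The ratio between the paralogous guides did not differ between cells and vesicles beyond the spread of the libraries. miR-125b-5p had 1.75, 1.81 and 2.25 times the counts of miR-125a-5p in fibroblast libraries 1, 2 and 4. In exosome libraries 1, 2 and unnumbered this ratio was 1.18, 2.60 and 1.38. The exosome values surrounded the fibroblast values. The mean log2 ratio of the exosome libraries was 0.68 ± 0.59, that of the fibroblast libraries 0.94 ± 0.20 (SD, n = 3 each), and the difference -0.26. The exact two-sided permutation test gave p = 0.5, and 0.5 after Benjamini-Hochberg adjustment over the 14 exact tests made here, in which 3 libraries against 3 cannot give a p below 0.1. At 11 to 54 exosome counts per strand, this does not show that the ratio was the same.

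The 3p strands of miR-125b, which name the hairpin copy, were both lower in exosomes by the edgeR test, at folds of 21.1 and 5.48, and the smaller change depended on the setting. rno-miR-125b-1-3p, from Mir125b1, had 161, 133 and 428 CPM in exosomes. In fibroblasts it had 4152, 1705 and 8964 CPM, and the groups did not overlap. Its log2 fold change was -4.40 (SE 1.14), 21.1-fold lower, with an adjusted p of 0.001 by edgeR's quasi-likelihood test. Its size was thus close to that of the 5p guides.

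rno-miR-125b-2-3p, from Mir125b2, had 384, 447 and 447 CPM in exosomes, the narrowest spread of the called members in that group. Its fibroblast values were 1789, 894 and 4315 CPM. The groups did not overlap, with fibroblast library 2 the nearest to the exosome values. The log2 fold change was -2.45 (SE 0.93), 5.48-fold lower, with an adjusted p of 0.03 by edgeR's quasi-likelihood test. This call was lost without exosome library 1 (-2.51, adjusted p = 0.12), without exosome library 2 (-2.89, adjusted p = 0.093) and without fibroblast library 4 (-1.69, adjusted p = 0.062). With the library numbers as a block it was -1.61 with an edgeR adjusted p of 0.079. Only libraries 1 and 2 of each group bear on the difference in that fit, since the others stand alone in their blocks. With library sizes without miR-873-3p the log2 fold change of miR-125b-2-3p changed sign, to 0.41 with an edgeR adjusted p of 0.59.

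Within each library, the 3p strands of the copies could be set against each other free of scaling. miR-125b-1-3p had 2.32, 1.91 and 2.08 times the counts of miR-125b-2-3p in the fibroblast libraries. In exosome libraries 1, 2 and unnumbered the ratio was 0.419, 0.298 and 0.957. All fibroblast libraries thus held more of the Mir125b1 strand, all exosome libraries more of the Mir125b2 strand, and in the unnumbered library the margin was 22 against 23 counts. The mean log2 ratio was -1.01 ± 0.85 in exosomes and 1.07 ± 0.14 in fibroblasts, a difference of -2.07 (SD, n = 3 each), with an exact two-sided permutation p of 0.1 and an adjusted value of 0.14. That p is the smallest the design allows.

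rno-miR-125a-3p, the partner strand of miR-125a-5p, was the member whose level differed least. It had 86.7, 78.3 and 97.3 CPM in exosomes, from 14, 10 and 5 counts. Its fibroblast values were 142, 150 and 127 CPM. The groups did not overlap, although the distance between them was small. The log2 fold change was -0.70 (SE 0.63), with an adjusted p of 0.45 by edgeR's quasi-likelihood test. With library sizes without miR-873-3p it turned to 1.81 with an edgeR adjusted p of 0.044. The median over all tested miRNAs was 2.37 in that setting.

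By the edgeR test, 4 of the 5 members were thus lower in exosomes and 0 were higher, and all 5 passed the filter on low counts. Over all 698 miRNAs tested, 130 were lower, which is 18.6%, and 79 were higher, which is 11.3%. The median log2 fold change was -4.24 over the members and -0.15 over all tested. Exosome CPM below all fibroblast CPM, which held for 5 of 5 members, was found for 24.6% of all tested. The called members belong to the abundant miRNAs of the cell: they are 4 of the 50 miRNAs with the highest mean fibroblast CPM, a group looked at after its values were seen. Of these 50, 44 were lower in exosomes, which is 88.0%, and 0 were higher, with a median log2 fold change of -4.27. The 4 called members are part of the 44 lower ones, and miR-125a-3p, at rank 209 by mean fibroblast CPM, is outside the 50. Most of the 50 were lower, so the lower level is nothing particular to miR-125.

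**Figure D2:**
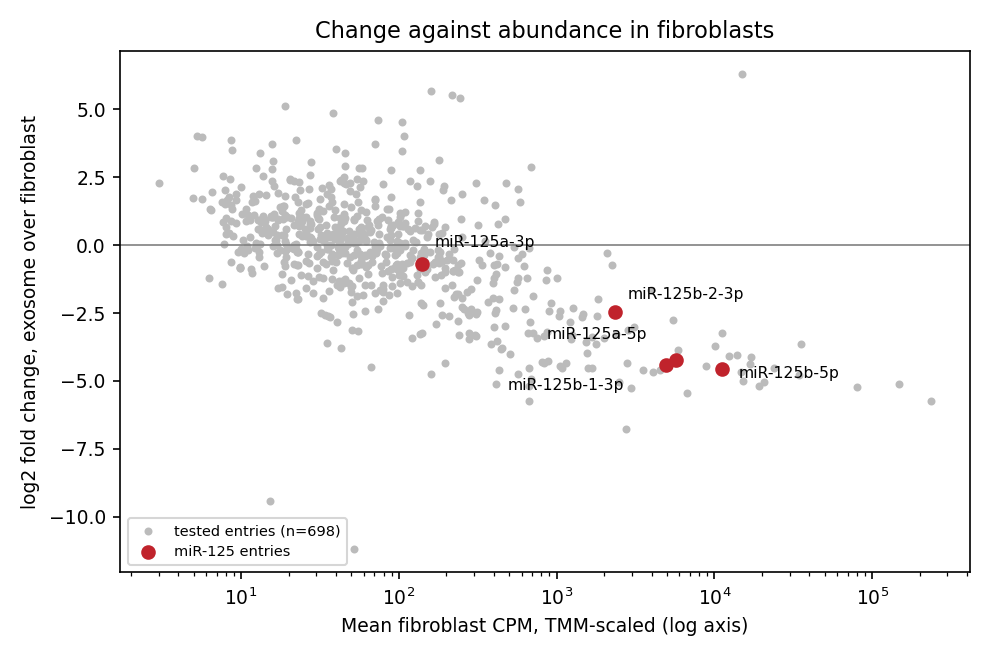
Log2 fold change of exosome over fibroblast (vertical) against mean fibroblast CPM after TMM scaling (horizontal, log axis) for the 698 tested miRNAs, with the 5 miR-125 entries in red. The 3 most abundant entries lie at -4.24 to -4.58 among other abundant miRNAs, and miR-125a-3p lies near 0 (-0.70) among those of its level; under library sizes without miR-873-3p miR-125a-3p and miR-125b-2-3p are above 0.

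How these changes read depends on the share of miR-873-3p in the exosome libraries. With library sizes without it and no TMM scaling, the median over all tested miRNAs moved from -0.15 to 2.37 on the log2 scale. The guides and miR-125b-1-3p remained lower, at -2.19 for miR-125b-5p (adjusted p = 0.0071 by edgeR), -1.95 for miR-125a-5p (adjusted p = 0.014) and -1.72 for miR-125b-1-3p (adjusted p = 0.026). A change of library sizes shifts all miRNAs of a library alike, so the distance of a member from the median miRNA is nearly fixed across such settings and is given as a description only. miR-125b-5p was -4.43 from that median under TMM scaling and -4.56 from it without miR-873-3p. The same distances were -4.09 and -4.32 for miR-125a-5p, -4.25 and -4.09 for miR-125b-1-3p, -2.30 and -1.96 for miR-125b-2-3p, and -0.55 and -0.56 for miR-125a-3p. In settings that change the libraries or the model the distances moved, for miR-125a-5p between -3.42 without exosome library 1 and -5.84 without the unnumbered one, and for miR-125b-2-3p to -1.41 with the replicate block.

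**Figure D3:**
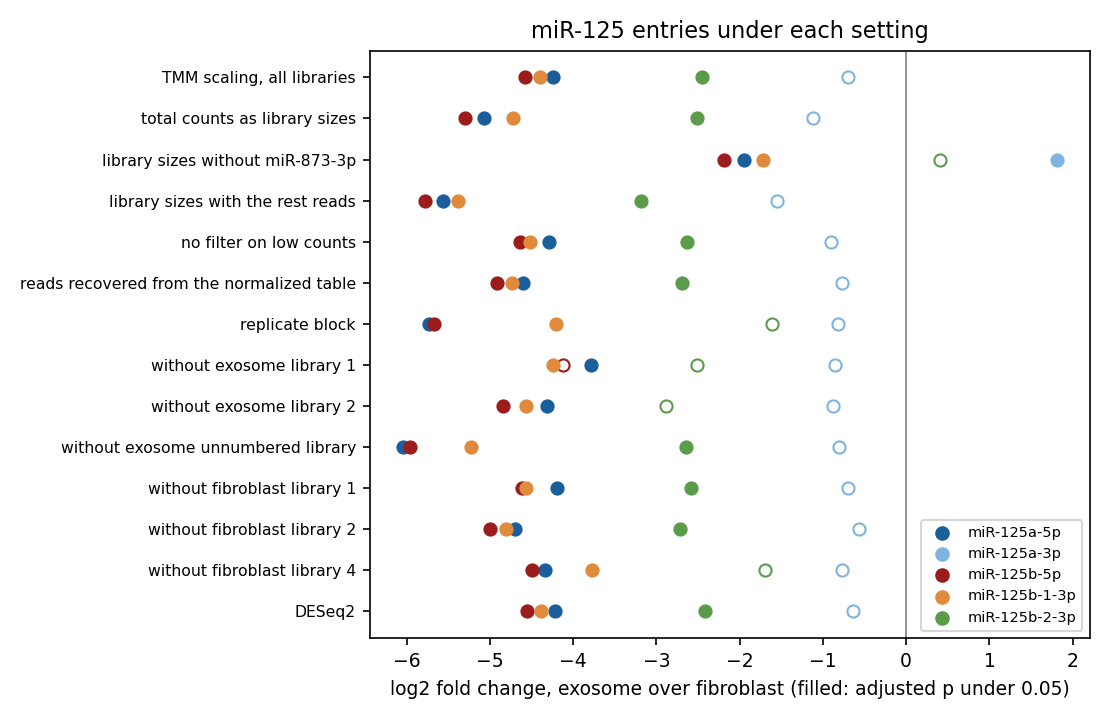
Log2 fold change of exosome over fibroblast for the 5 miR-125 entries under TMM scaling with all libraries (top) and under each other setting; filled points have an adjusted p under 0.05. miR-125a-3p (1.81) and miR-125b-2-3p (0.41) cross 0 in the setting without miR-873-3p, and both lie to the right of the other 3 entries in every setting shown.

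As plain shares of the miRNA counts, the members gave the same picture for the guides and a divided one for the 3p strands. miR-125b-5p held 0.0302% ± 0.0177 of exosome counts and 1.19% ± 0.0550 of fibroblast counts (SD, n = 3 each). miR-125a-5p held 0.0184% ± 0.0126 and 0.621% ± 0.0888. miR-125b-1-3p held 0.0184% ± 0.00330 and 0.484% ± 0.199, and miR-125b-2-3p held 0.0404% ± 0.0183 and 0.231% ± 0.0961. For these 4 members the groups did not overlap and the exact two-sided permutation p was 0.1, the smallest possible, with an adjusted value of 0.14. On the CPM scale, 24.6% of all tested miRNAs had exosome values below all fibroblast values. For shares of counts, with or without miR-873-3p, this was not counted over all miRNAs. The lack of overlap in shares is thus not read as particular to the members. miR-125a-3p held 0.00823% ± 0.00376 and 0.0179% ± 0.0106, with overlapping groups and an exact p of 0.2, adjusted 0.233.

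Taken as shares of the counts other than miR-873-3p, the guides were again lower in exosomes. miR-125b-5p held 0.267% ± 0.193 against 1.20% ± 0.0630, and miR-125a-5p 0.165% ± 0.144 against 0.629% ± 0.0869, without overlap. If exosome library 1 had held miR-125b-5p at the mean fibroblast share of these counts, it would have had 219 counts, and it had 13. The same reckoning gives 173 against 39 in library 2 and 142 against 54 in the unnumbered library. For miR-125a-5p it gives 114, 90.2 and 74.4 against 11, 15 and 39. The guides fell short in every exosome library, least in the unnumbered one.

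The partner strand of miR-125a lay higher in exosomes on this scale. miR-125a-3p held 0.0630% ± 0.0183 of exosome counts other than miR-873-3p and 0.0181% ± 0.0105 in fibroblasts, without overlap (exact permutation p = 0.1, adjusted 0.14). Its 14, 10 and 5 exosome counts stood against 3.29, 2.59 and 2.14 at the fibroblast share. With library sizes without miR-873-3p, edgeR called 378 of 696 tested miRNAs higher, and the median log2 fold change was 2.37. There miR-125a-3p was at 1.81, below that median, so its higher share is not read as particular to it. miR-125b-2-3p held 0.311% ± 0.105 against 0.235% ± 0.10, with overlapping groups (exact permutation p = 0.3, adjusted 0.323), and miR-125b-1-3p was lower, at 0.149% ± 0.0342 against 0.492% ± 0.207.

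The make-up of a hairpin family, the part of each strand in its counts, needs no scaling between libraries, and it differed between cells and vesicles for miR-125a. In fibroblasts, miR-125a was nearly all 5p strand, and the 3p strand made up 1.90%, 4.58% and 1.86% of its counts in libraries 1, 2 and 4. In exosomes the 3p strand made up 56.0% of 25 counts in library 1 (95% Clopper-Pearson interval 34.9% to 75.6%), 40.0% of 25 counts in library 2 (21.1% to 61.3%) and 11.4% of 44 counts in the unnumbered library (3.79% to 24.6%). All exosome libraries were above all fibroblast libraries, and the unnumbered one came closest to the cells. Its interval includes the 4.58% of fibroblast library 2. The exosome parts rest on 14, 10 and 5 counts of miR-125a-3p, and the median listed entry had 8, 7 and 3 counts in these libraries. The 3p part averaged 35.8% ± 22.6 over exosome libraries and 2.78% ± 1.56 over fibroblast libraries (SD, n = 3 each).

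Parts were tested within edgeR's fit over all families with at least 2 strands past the filter on low counts. In this test the part of miR-125a-3p in its family was larger in exosomes by 3.39 on the log2 scale, with an adjusted p of 0.00011. It stayed past the threshold in each of the 9 alternatives that could give it, from 2.87 to 4.35 with adjusted p between 1.6e-07 and 0.011. The 5p to 3p ratio of miR-125a was 51.6, 20.8 and 52.7 in fibroblasts and 0.786, 1.50 and 7.80 in exosomes. Its mean log2 was 5.26 ± 0.76 and 1.02 ± 1.64, a difference of -4.24, with an exact two-sided permutation p of 0.1 and an adjusted value of 0.14. Strands with a larger part in exosomes made up 10.2% of the 558 strands in that fit, 19.4% of the 294 strands that held under 50% of their family's fibroblast counts, and strands with a smaller part 3.76%. The members counted 1 larger and 0 smaller of 5.

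For miR-125b, the strand whose part differed most was miR-125b-2-3p. It made up 61.4%, 50.4% and 23.2% of the miR-125b counts of exosome libraries 1, 2 and unnumbered, and 9.55%, 10.8% and 15.2% in fibroblasts. The groups did not overlap, and the means were 45.0% ± 19.6 and 11.9% ± 2.97 (SD, n = 3 each). In edgeR's fit its part was 1.62 higher on the log2 scale, with an unadjusted p of 0.054 and an adjusted p of 0.24. With the library numbers as a block it was 2.45 higher with an edgeR adjusted p of 0.0018. That block fit draws the difference from libraries 1 and 2 of each group alone. miR-125b-5p made up 12.9%, 34.5% and 54.5% in exosomes and 68.3%, 68.6% and 53.2% in fibroblasts, and here the unnumbered exosome library lay above fibroblast library 4. miR-125b-1-3p had similar parts in both, 25.7%, 15.04% and 22.2% in exosomes and 22.2%, 20.6% and 31.6% in fibroblasts. Neither differed in the edgeR test (adjusted p = 0.95 and 0.98).

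Against both 3p strands together, miR-125b-5p had ratios of 0.148, 0.527 and 1.20 in exosomes and 2.15, 2.18 and 1.14 in fibroblasts. The log2 difference was -1.93, with overlapping groups and an exact two-sided permutation p of 0.2, adjusted 0.233. In exosome libraries 1 and 2 the 3p strands of miR-125b thus outnumbered the guide, and in the other 4 libraries the guide outnumbered them.

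**Figure D4:**
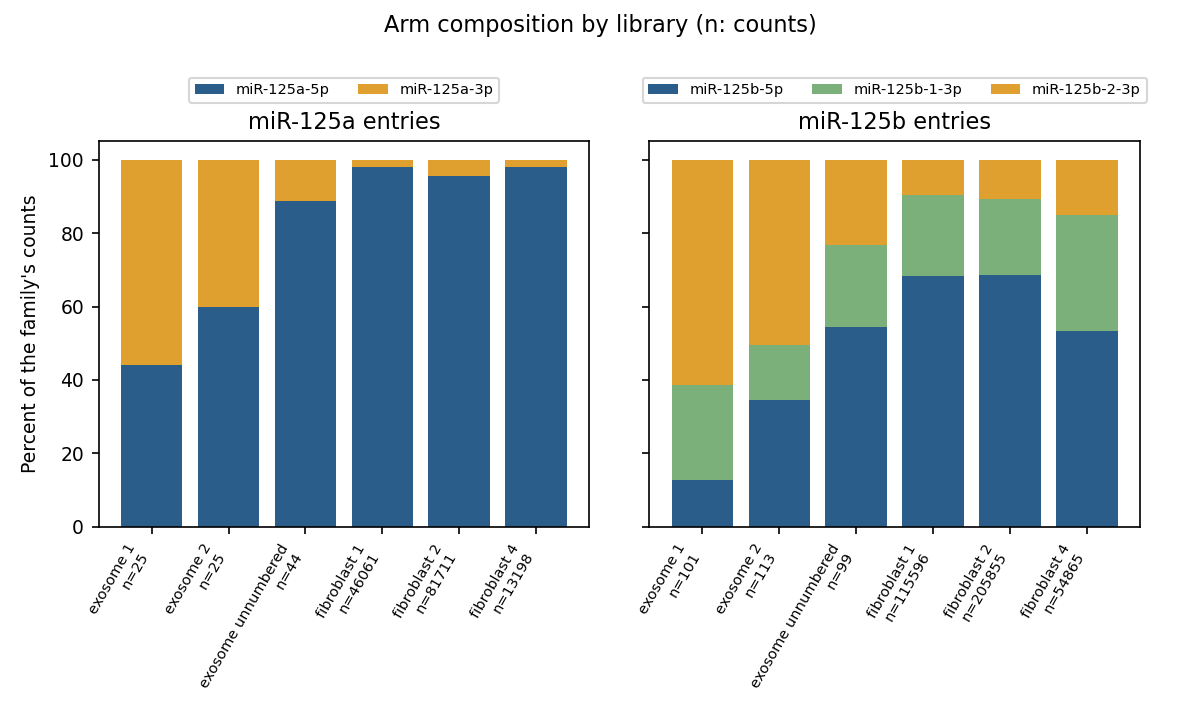
Part of each strand in the counts of miR-125a (left) and miR-125b (right), in percent of the family's counts, for each library with its number of counts (n). The orange 3p strand takes 11.4% to 56.0% of miR-125a in exosomes and 1.86% to 4.58% in fibroblasts, and 23.2% to 61.4% against 9.55% to 15.2% in miR-125b.

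The other carrier of the seed was lower in exosomes too. miR-351-5p, a rodent miRNA from chrX:137725157-137725181 on the minus strand, had 86, 55 and 40 counts in exosome libraries 1, 2 and unnumbered. In fibroblasts it had 53448, 143009 and 58283 counts, the highest of the 3 seed carriers in libraries 2 and 4. Its CPM did not overlap between groups. Its log2 fold change was -4.68 (SE 1.38), 25.7-fold lower, with an adjusted p of 0.004 by edgeR's quasi-likelihood test. All 3 carriers of the CCCUGAG seed were thus lower in exosomes. They are among the 50 most abundant miRNAs of the fibroblasts, of which 88.0% were lower, so the count says nothing particular to the seed.

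Each miR-125 hairpin lies near members of the miR-99/100 and let-7 families, with which it is known to share ancient clusters. The Mir99b hairpin lies 555 bases and the Mirlet7e hairpin 367 bases from the 5p strand of Mir125a. The clusters of miR-125b are wider, with Mir100 at 51.7 kb and Mirlet7a-2 at 44.8 kb from the 5p strand of Mir125b1, and Mir99a at 45.1 kb and Mirlet7c1 at 44.4 kb from that of Mir125b2. Of the 12 mature strands of these neighbours, 6 were lower in exosomes and 1 was higher by the edgeR test, with a median log2 fold change of -1.999. The 6 lower ones were the 5p strands, 6 of 6, with a median of -4.23. These 5p strands ranked 10 to 43 by mean fibroblast CPM, within the 50 most abundant miRNAs of the fibroblasts. Of those 50, 88.0% were lower, with a median of -4.27, so the count says nothing particular to the clusters. Over all 282 5p strands tested, 65 were lower, which is 23.0%, with a median of -0.19. Of the 6 neighbouring 3p strands 0 were lower and 1 was higher, with a median of 0.12. Over all 292 3p strands tested, 47 were lower (16.1%) and 25 higher (8.56%), with a median of -0.12. Of the 6 calls among the 5p strands, those of miR-99b-5p and let-7e-5p held in all 13 alternatives, and the other 4 did not.

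The tight cluster of miR-125a showed this split on both sides. miR-99b-5p had a log2 fold change of -4.45 (SE 1.26, edgeR adjusted p = 0.0026) and let-7e-5p of -4.66 (SE 1.12, adjusted p = 0.00041), beside -4.24 for miR-125a-5p. miR-99b-3p stood at 0.40 (adjusted p = 0.68) and let-7e-3p at -0.16 (adjusted p = 0.88), beside -0.70 for miR-125a-3p. Without miR-873-3p in the library sizes the values of miR-99b-3p and let-7e-3p were 3.13 and 2.35, both past the threshold. In that setting 378 of 696 tested miRNAs were called higher and the median was 2.37, so these calls are not read as particular to the 3p strands. The part of the 3p strand in its family was larger in exosomes by 4.38 for miR-99b (adjusted p = 1.1e-06) and by 3.74 for let-7e (adjusted p = 1.5e-05). All 3 hairpins of the cluster thus had a larger 3p part in exosomes. Of all strands that held under 50% of their family's fibroblast counts, 19.4% had a larger part. For families with a 5p strand as abundant, that share was not counted. The larger 3p part is thus not read as particular to the cluster.

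Near Mir125b1, miR-100-5p had a log2 fold change of -3.27 (SE 0.96, edgeR adjusted p = 0.0039). This call was lost without miR-873-3p in the library sizes (-0.63, adjusted p = 0.41) and without exosome library 2 (-3.24, adjusted p = 0.061). let-7a-5p had -4.09 (SE 1.31, edgeR adjusted p = 0.0089), a call lost without exosome library 1 (-3.65, adjusted p = 0.093) and without exosome library 2 (-4.12, adjusted p = 0.071). miR-100-3p stood at 0.91, not past the threshold. It stood at 3.33 with an edgeR adjusted p of 0.023 without miR-873-3p in the library sizes, where the median was 2.37. let-7a-2-3p stood at -1.40, not past the threshold, and turned to 1.06 (adjusted p = 0.45) without miR-873-3p in the library sizes. It passed as lower with the rest reads in the library sizes (-2.25, edgeR adjusted p = 0.046) and without exosome library 2 (-3.41, adjusted p = 0.049). Both rest on few exosome counts, 7, 1 and 1 for miR-100-3p and 0, 5 and 1 for let-7a-2-3p. The mature let-7a-5p and let-7c-5p come from several hairpins and are not products of these clusters alone.

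Near Mir125b2, let-7c-5p had a log2 fold change of -4.38 (SE 1.39, edgeR adjusted p = 0.0083), with adjusted p of 0.077 and 0.062 without exosome library 1 or 2. miR-99a-5p had -2.60 (SE 0.90, edgeR adjusted p = 0.016), with adjusted p of 0.12 and 0.1 without exosome library 1 or 2, and turned to 0.019 (adjusted p = 0.98) without miR-873-3p in the library sizes. miR-99a-3p was the neighbour that was higher in exosomes. It had 83, 87 and 82 counts in exosomes and 401, 1125 and 197 in fibroblasts, which after scaling was 13.1-fold higher in exosomes, a log2 fold change of 3.71 (SE 0.78, edgeR adjusted p = 4.9e-05). let-7c-1-3p stood at -0.90, from 4, 2 and 1 exosome counts, and turned to 1.79 without miR-873-3p in the library sizes. The strands of the cluster with Mir125b2 thus ranged from lower to higher, with miR-125b-2-3p at -2.45 between them.

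In the test of parts, 5 of the 6 neighbouring 3p strands had a larger part in exosomes, against 10.2% of all strands tested and 19.4% of the minor strands. Their 5p partners were all among the 50 most abundant miRNAs of the fibroblasts, of which 88.0% were lower in exosomes. For minor strands of families as abundant, the share with a larger part was not counted. The count is thus not read as particular to the clusters. The 5 strands are named next. Besides miR-99b-3p and let-7e-3p these were miR-99a-3p (4.37 on the log2 scale, adjusted p = 1.2e-05), miR-100-3p (4.10, adjusted p = 0.00068) and let-7c-1-3p (3.57, adjusted p = 0.0041). let-7a-2-3p had 2.78 with an adjusted p of 0.072. Without exosome library 1, miR-100-3p (adjusted p = 0.29) and let-7c-1-3p (adjusted p = 0.26) were no longer past the threshold.

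**Figure D5:**
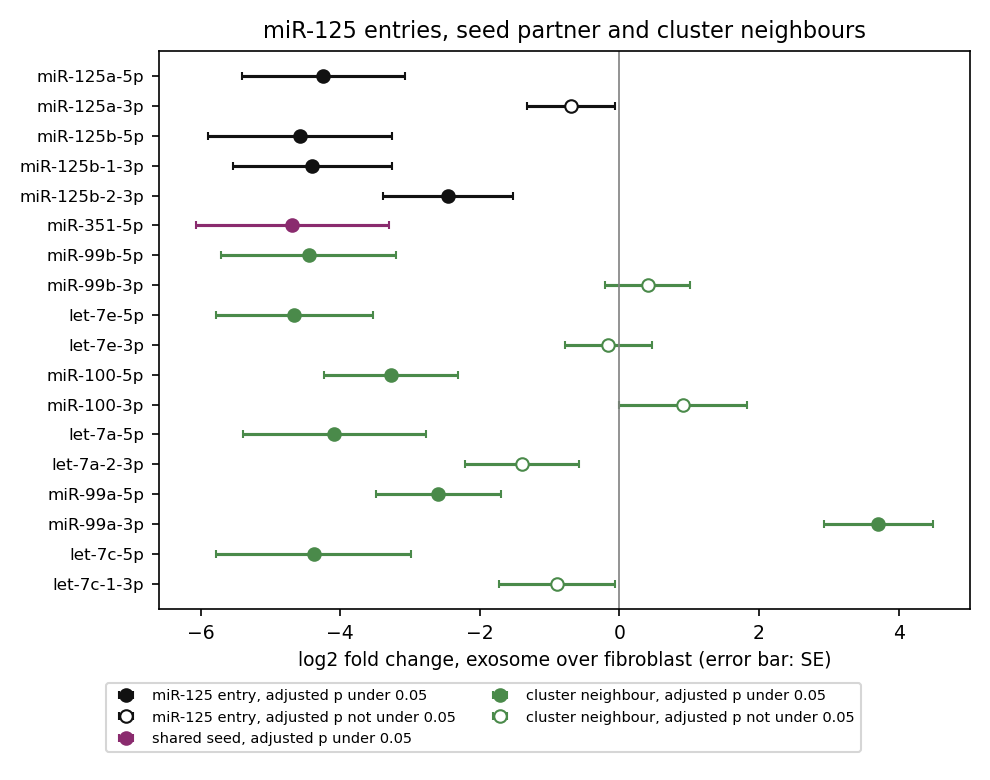
Log2 fold change of exosome over fibroblast under TMM scaling with its SE, for the 5 miR-125 entries (black), the seed partner miR-351-5p (purple) and the 12 strands of the cluster neighbours (green); filled points have an edgeR adjusted p under 0.05. The 5p strands lie between -2.60 and -4.68 and the 3p strands of the neighbours between -1.40 and 3.71; without miR-873-3p in the library sizes miR-99a-5p is at 0.019 and most 3p strands are above 0.

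Over the 6 libraries, the profiles most like that of miR-125b-5p, by Pearson's r of log2(CPM + 1) among 520 miRNAs with at least 10 exosome counts, were those of miR-98-5p (r = 0.994), miR-16-5p (r = 0.993) and miR-143-3p (r = 0.992). Those most like miR-125a-5p were miR-22-3p, miR-148b-3p and let-7i-5p, each with r = 0.999. These r describe 6 points in 2 clusters, the groups themselves, and all share the libraries' depth and scaling. The log2 fold changes of these 6 miRNAs were -3.20, -4.33, -5.75, -5.11, -5.05 and -5.001 in the order named. miR-143-3p and miR-22-3p were the most abundant miRNAs of the fibroblasts, at ranks 1 and 2 by mean CPM, and miR-125b-5p stood at rank 17 and miR-125a-5p at rank 23.

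The authors' deposited table of their own comparison gave folds of fibroblast over exosome of 23.1 for miR-125b-5p, 18.1 for miR-125a-5p, 20.5 for miR-125b-1-3p, 5.47 for miR-125b-2-3p and 1.52 for miR-125a-3p. In that table the adjusted p was 0.00039 for miR-125b-5p and 0.00081 for miR-125a-5p. It was 0.091 for miR-125b-1-3p and 0.68 for miR-125b-2-3p in the authors' deposited table, so there the guides alone passed 0.05. The folds lay near those of the edgeR fit for all 5 members, and the calls of the 3p strands of miR-125b differed.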

How the data were processed

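Small RNA was sequenced in 3 exosome and 3 fibroblast libraries. Raw read counts for each mature miRNA, as the authors deposited them, were the input of every test. A second table holds a normalized signal which, per the file headers and its values, the authors made by dividing counts by a size factor per library. The authors' deposited comparison holds, per the file headers, a fold ratio with its log2 value and a p-value before and after adjustment. The submitters' processing notes name CASAVA 1.8.2, cutadapt 1.2.1, DESeq and build rn5, while aligner, counting rule and miRNA annotation were not given in the sources used here. Coordinates are RefSeq's on GRCr8, and none were read from the deposited files. The normalized table's last row, called rest, stands for no miRNA. It held 84.4%, 78.7% and 77.2% of the reads of exosome libraries 1, 2 and unnumbered and 63.1%, 82.4% and 66.0% of fibroblast libraries 1, 2 and 4, and was left out except in alternatives that name it.

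Group differences in counts were tested two-sided by the quasi-likelihood method of edgeR 4.0.16 (R 4.3.3) after filterByExpr, with a minimum count of 10 and a minimum total of 15, and TMM scaling. Adjusted p-values follow Benjamini and Hochberg, and 0.05 was the threshold. The filter removed 30 of 728 entries and kept all 5 members. Each SE is the absolute log2 fold change over the square root of F. Parts within a family were tested with diffSpliceDGE on the same fit, in 269 families. Exact permutation tests used scipy 1.17.1 and a pseudocount of 0.5 in log2 ratios. The functions were tested on simulated data. Libraries of a group differed by more than sampling noise (chi-square statistic over its degrees of freedom, 4.10 to 621).

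Alternatives were total counts, library sizes without miR-873-3p or with the rest reads, no filter, reads recovered from the normalized table, a replicate block, DESeq2 1.42.0, other pseudocounts, and leaving out each library. The normalized values times the size factor lay within 0.000135 of whole reads in all libraries, and these reads came to 99.3% to 99.8% of the raw counts. The text names all 5 members, the entries with the seed of miR-125a-5p, both arms of the neighbours in the 3 clusters, miR-873-3p, and the 3 entries with the profile most like each guide. miR-3588, the 50 most abundant miRNAs and 3 of the 4 ratios were added after values were seen. Members and lists were chosen with earlier results of these data known.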

Additional observations from a re-analysis of the deposited data

How the results depend on the processing

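Library sizes without miR-873-3p moved the results most: 36 miRNAs were lower in exosomes in place of 130 and 378 higher in place of 79. In this setting the log2 fold change was 1.81 for miR-125a-3p, 0.41 for miR-125b-2-3p, 2.35 for let-7e-3p, 1.06 for let-7a-2-3p, 0.019 for miR-99a-5p and 1.79 for let-7c-1-3p, each with a changed sign. The differences in share of counts without miR-873-3p also changed sign, to 0.0449 percentage points for miR-125a-3p and 0.0764 for miR-125b-2-3p. The number higher was 43 with total counts as library sizes and 35 with the rest reads included, where miR-99b-3p was at -0.29. Leaving out 1 library at a time gave -0.39 to 0.72 for miR-99b-3p and -0.36 to 1.25 for miR-100-3p, with both lowest values without exosome library 1. DESeq2 called 94 higher and 121 lower, and 263 miRNAs had an unadjusted p under 0.05 in edgeR.

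Leaving out each library in turn gave 86 to 139 lower, 46 to 78 higher, 19 to 60 strands with a larger part of their family in exosomes in place of 57, and 10 to 23 with a smaller part in place of 21. The fewest lower calls came without exosome library 1 and the fewest higher ones without exosome library 2. Fits without a fibroblast library tested 402, 359 and 414 miRNAs in place of 698. The log2 fold change ranged from -5.96 to -4.12 for miR-125b-5p, from -2.89 to -1.69 for miR-125b-2-3p, from -6.04 to -3.78 for miR-125a-5p and from -5.23 to -3.78 for miR-125b-1-3p, and the last 2 kept their calls under all 13 alternatives (adjusted p up to 0.046 and 0.026).

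Replicate numbers 1 and 2 occur in both groups, and no label says that they pair samples. Deviations from the group means correlated by -0.098 for number 1 and 0.166 for number 2, against 0.206 for exosome library 1 with fibroblast library 2. In the replicate block, the unnumbered exosome library and fibroblast library 4 each stand alone. The group difference in that fit thus rests on libraries 1 and 2 of each group. With the replicate block, miR-125b-2-3p was at -1.61, its part in the family at 2.45, and 36 strands had a smaller part. The block gave -5.72 for miR-125a-5p, -5.67 for miR-125b-5p, -4.20 for miR-125b-1-3p and -0.82 for miR-125a-3p, with no other call among the members changed. The cause of these changes was not tested. With 5 to 62 counts per member and exosome library, counting error limits the exosome values.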
